A study of Mus musculus with 11 samples.

Results

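Chromatin accessibility was followed at 9 genes of the Bcl2 family, which decide between survival and death of a cell: Bcl2, Bcl2l1, Mcl1, Bcl2l11, Bbc3, Pmaip1, Bid, Bax and Bak1. Their peaks were all those to which the deposited peak table assigns 1 of these gene names, and they came to 60 of the 45508 peaks of the table. Bcl2l11 held 19 of them, Bcl2 12, Mcl1 and Bbc3 7 each, Bid 5, Bcl2l1 4, Pmaip1 3, Bax 2 and Bak1 1, so none of the 9 genes lacked a peak. Of the 60 peaks, 10 lay within 1 kb of an annotated transcription start and 50 did not. The table assigns each peak to its nearest start, which need not belong to the gene that the peak regulates. Coordinates are those of the table, in mm10.

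The Bcl2 family sets the threshold for the mitochondrial pathway of apoptosis. Pro-survival members (Bcl2, Bcl2l1 and Mcl1) bind and hold in check the effectors Bax and Bak1, which perforate the outer mitochondrial membrane and release cytochrome c. The BH3-only proteins (Bcl2l11, Bbc3, Pmaip1 and Bid) sense stress or signals and neutralise the pro-survival members or activate the effectors. In T cells of the mouse, Bim, the product of Bcl2l11, is needed to delete thymocytes that respond strongly to self antigen, and naive cells depend on Bcl2, which interleukin 7 sustains, and on Mcl1 to oppose Bim.

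The assay was ATAC-seq, in which the transposase Tn5 inserts sequencing adapters into open DNA. Naive CD4 T cells (CD4+, CD44lo and negative for the Foxp3-RFP reporter) came from spleen plus lymph nodes of 3 untreated mice, with 10000 cells per library and no stimulation. All mice carried the transgene Tg(Nr4a1-EGFP)GY139Gsat, which makes green fluorescent protein from Nr4a1 (Nur77) regulatory sequence and so reports T cell receptor signalling, and the Foxp3tm1Flv allele, the red Foxp3 reporter, on the C57/BL6 background. Population D was Nur77-GFPhi and Ly6C negative, C was Nur77-GFP intermediate and Ly6C negative, B was Nur77-GFP intermediate and Ly6C positive, and A was Nur77-GFPlo and Ly6C positive. Populations D, C and B had a library from each of mice 1, 2 and 3, and A had libraries from mice 1 and 3 only. D against A therefore changes the reporter and Ly6C together, D against C and B against A change the reporter at constant Ly6C, and C against B changes Ly6C within the intermediate reporter gate. The animals' age and sex were not given in the sources used here.

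Values are rppm, reads scaled to library size by a denominator recovered from the table, which ran from 2597176 reads in D of mouse 1 to 36859228 in D of mouse 3. Mouse 3 gave the deepest library of each population. Each of the 45508 peaks was at 1 rppm or more in 3 or more libraries, a condition that a peak open only in D could meet and a peak open only in the 2 libraries of A could not. Of the 60 Bcl2 family peaks, 58 were at or above 1 rppm in every library. The 7 T cell marker genes all had peaks, and their summed level was 1230 to 1320 rppm in D and 1290 to 1320 in A. No peak was listed for Ms4a1 or Pax5 of the B cell markers, Lyz2 or Csf1r of the myeloid markers, or Ncr1 of the NK cell markers. The 2 of 5 B cell genes with a peak summed to 29.3 to 42 rppm in D and 37.5 to 43.6 in A. The 2 of 4 myeloid genes summed to 32.3 to 39.1 rppm in D and 40.4 to 43.5 in A, lower in every D library, and the part of this in the differences below was not tested. The 2 CD8 genes summed to 32.1 to 43.3 rppm in D and 37.4 to 38.4 in A, and the 1 of 2 NK genes to 295 to 370 in D and 322 to 338 in A. The Foxp3 peak stood at 3.85 to 5.67 rppm in D and 3.12 to 4.35 in A. Such sums can hide changes at single peaks. By the limma test described below, 1 of the 59 T cell peaks was higher in D than in A and 3 were lower. Of the 6 myeloid peaks 1 was higher and 1 lower, and of the 4 CD8 peaks 1 was higher. No B cell, NK cell or Foxp3 peak was called. Over all peaks of the table, 8.7% were higher and 3.74% lower. In such sorted bulk samples, fewer cells with an open site and a less open site per cell cannot be told apart.

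Promoters of the pro-survival genes and of Bcl2l11 are shown. The peaks that hold them were among the most open of the 60 and were not called in any comparison, while the called changes of these genes lay elsewhere. Bcl2l11 had 2 peaks within 1 kb of a start, and the window shown is from the less open one (mean 51.8 rppm, against 58.9). The more open one was lower in D against A only with a term for the mouse (log2 -0.33, limma adjusted p = 0.0227). Each sequence is the RefSeq window of GRCm38.p6 from 250 bases before to 50 bases after an annotated start, written 5′ to 3′ along the gene. Each lies wholly inside a promoter peak of the gene. Capitals mark the Klf and Sp motif CCGCCC or its complement GGGCGG.
Bcl2l11 (chr2:128125788-128126087, plus strand): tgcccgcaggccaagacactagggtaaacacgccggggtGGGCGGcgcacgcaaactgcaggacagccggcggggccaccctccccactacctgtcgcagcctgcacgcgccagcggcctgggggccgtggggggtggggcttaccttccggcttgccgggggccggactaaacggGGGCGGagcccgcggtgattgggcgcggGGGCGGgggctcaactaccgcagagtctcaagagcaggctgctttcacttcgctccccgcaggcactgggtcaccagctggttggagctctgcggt
Bcl2 (chr1:106714241-106714540, minus strand): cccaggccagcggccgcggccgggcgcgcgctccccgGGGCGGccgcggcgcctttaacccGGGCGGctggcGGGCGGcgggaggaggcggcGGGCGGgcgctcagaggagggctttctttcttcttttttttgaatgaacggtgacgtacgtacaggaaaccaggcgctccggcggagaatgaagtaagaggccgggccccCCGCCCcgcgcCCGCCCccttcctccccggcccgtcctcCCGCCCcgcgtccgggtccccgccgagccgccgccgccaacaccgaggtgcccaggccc
Bcl2l1 (chr2:152830668-152830967, minus strand): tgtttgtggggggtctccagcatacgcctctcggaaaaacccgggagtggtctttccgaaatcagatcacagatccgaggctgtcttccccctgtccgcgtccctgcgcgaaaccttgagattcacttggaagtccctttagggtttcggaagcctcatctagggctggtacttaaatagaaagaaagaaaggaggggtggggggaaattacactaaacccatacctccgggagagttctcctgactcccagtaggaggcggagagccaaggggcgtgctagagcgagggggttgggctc
Mcl1 (chr3:95658471-95658770, plus strand): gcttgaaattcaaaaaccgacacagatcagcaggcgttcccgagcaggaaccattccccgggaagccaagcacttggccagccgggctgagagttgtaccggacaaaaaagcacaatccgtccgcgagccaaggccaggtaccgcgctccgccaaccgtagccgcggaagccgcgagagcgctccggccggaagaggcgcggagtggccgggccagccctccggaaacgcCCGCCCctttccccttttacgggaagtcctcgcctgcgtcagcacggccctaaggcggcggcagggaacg
The Bcl2 window held 7 copies of the Klf and Sp motif, the Bcl2l11 window 3, the Mcl1 window 1 and the Bcl2l1 window 0, and 35.7% of the 32851 RefSeq windows of this length held at least 1. The windows were 76%, 71%, 65.7% and 55.7% G or C in the order Bcl2, Bcl2l11, Mcl1 and Bcl2l1, against a median of 52.7% over all windows. On both strands, none of the 4 windows matched AP-1 TGANTCA (held by 7.81% of all windows), the NR4A half-site AGGTCA (16.3%), Runx TGTGGT (16.8%) or Tcf CTTTGA (16%). NFAT GGAAA (61.3% of all windows) was found 3 times in Bcl2l1, 2 times in Mcl1 and 1 time in Bcl2. Ets CCGGAA or AGGAAG (45.2%) was found 2 times in Mcl1 and 1 time each in Bcl2 and Bcl2l11, and Foxo TAAACA (13.4%) and the E-box CAGCTG or CAGGTG (32.9%) 1 time each in Bcl2l11. In Mcl1, 1 NFAT match overlaps 1 Ets match, as the motifs share the letters GGAA. These counts are for 1 start of each gene, and windows at other starts of Bcl2l1 and Bcl2l11 differed. For Bcl2l1, chr2:152831679-152831978, in the same promoter peak, held 1 Ets match. The Bcl2l1 window chr2:152828440-152828739, outside the gene's peaks, held 1 NR4A half-site. For Bcl2l11, chr2:128127325-128127624, in the more open promoter peak, held 3 Klf and Sp motifs and no Ets, Foxo or E-box match. A match is a run of letters and not a binding site, and the sequences of the distal peaks were not analysed here.

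Among the 60 peaks assigned to the 9 genes, accessibility differed between D and A mainly at distal peaks of Bcl2l11. Each peak was tested by limma on log2(rppm + 1) in 1 model over all 45508 peaks, with Benjamini-Hochberg adjustment, and "called" means an adjusted p below 0.05. In D against A, 16 of the 60 peaks were called, of which 14 were more open in D and 2 less open. Of the 14, 8 belonged to Bcl2l11, 3 to Pmaip1 and 1 each to Bcl2l1, Mcl1 and Bbc3, and the less open ones were 1 of Bcl2l11 and 1 of Mcl1. No peak of Bcl2, Bid, Bax or Bak1 was called. The higher calls made up 23.3% of the 60 peaks, against 8.7% of all peaks of the table, and the lower ones 3.33%, against 3.74%. Without the 19 peaks of Bcl2l11, 6 of 41 (14.6%) were called higher. The median log2 change over the 60 peaks was -0.00, against -0.04 over the table, with 29 estimates above 0 and 31 below. With a term for the mouse in the model, 15 were higher and 5 lower, against 12.5% and 8.79% of all peaks. Every D library was above every A library at the 14 higher peaks and below at the 2 lower ones. Both mice with an A library therefore showed the same direction at each of the 16. As the 16 were chosen for this difference in the same libraries, the separation is a description and no added support.

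Of the 10 promoter peaks, only that of Pmaip1 was called (10%, against 3.64% of all peaks within 1 kb of a start). Beyond 1 kb, 13 of 50 were higher and 2 lower (30% in all, against 15.7%). Mouse 3 supplied 1 of the 2 A libraries. Without that mouse, which leaves A with the library of mouse 1 alone, limma called 4 of the 60 peaks (6.67%, against 2.25% of all peaks), all higher in D: the Bcl2l11 peaks 52.9, 33.7 and 8.24 kb upstream of the start and the Pmaip1 peak 49.2 kb upstream. Those 4 were called under each of the alternatives that could be fitted to them.

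**Figure D1:**
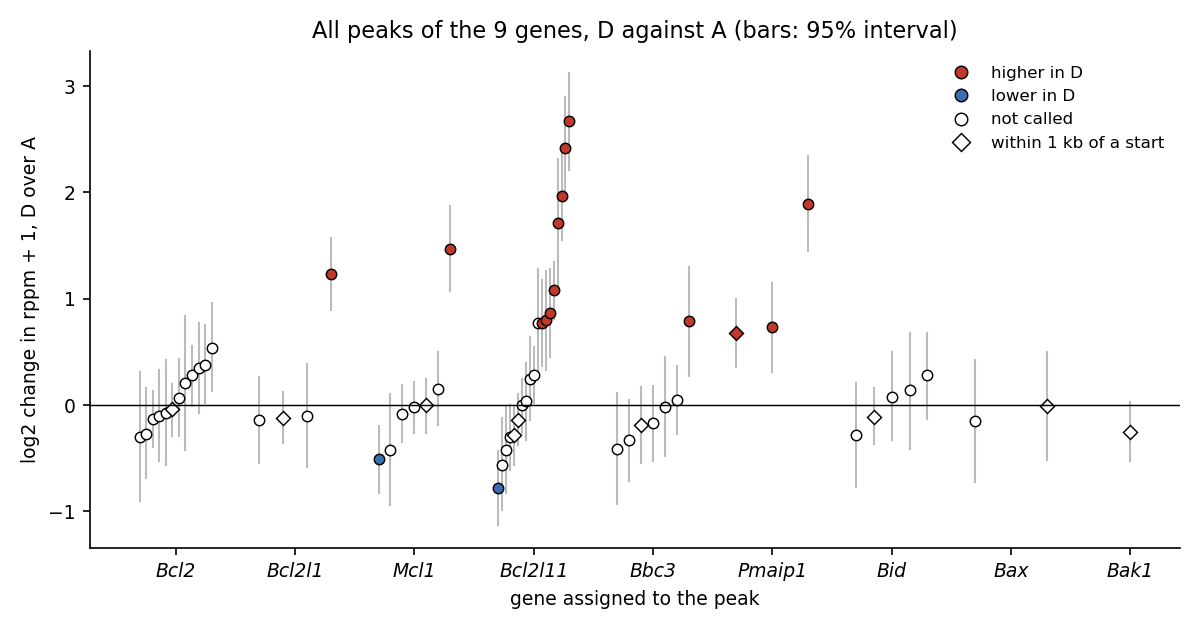
Log2 change in rppm + 1, D over A, at each of the 60 peaks (points, with bars for the 95% interval of the limma estimate), grouped by assigned gene and ordered by size within a gene. Filled points are called, and diamonds lie within 1 kb of a start. The Bcl2l11 column runs from -0.78 to 2.67, whereas the 12 peaks of Bcl2 lie between -0.30 and 0.54.

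Among the pro-survival genes, 1 distal peak each of Bcl2l1 and Mcl1 was more open in D, and their promoters and that of Bcl2 were not called. The Bcl2 promoter peak (chr1:106713500-106714977) read 57.4 and 70.2 rppm in A, 63.9, 54.5 and 59.7 in B, 62.6, 55.8 and 60.6 in C and 59.7, 61.5 and 63.6 in D. The D libraries lay within the range of the A libraries. The estimated log2 change of D over A was -0.04 (SE 0.11, 95% interval -0.29 to 0.20, limma adjusted p = 0.877). The other 11 peaks assigned to Bcl2 averaged 2.96 to 26.7 rppm and changed by -0.30 to 0.54.

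The Bcl2 peak with the smallest p lay in intron 1 of the gene, 36 kb downstream of the start (chr1:106677983-106678532). It had 3.85, 3.93 and 4.23 rppm in D, against 3.04 and 1.91 in A, with B at 2.47 to 2.67 and C at 1.96 to 3.04. D stood above every other library, but the change was not called (log2 0.54, SE 0.19, limma adjusted p = 0.0913). Of the alternatives that could be fitted to it, only edgeR's quasi-likelihood test on the recovered reads (adjusted p = 0.0408) and limma without mouse 1 (log2 0.80) called it. Without mouse 1, A rests on the library of mouse 3 alone, the lower one at 1.91 rppm. Because peaks go to the nearest start, a further 16 peaks inside the Bcl2 gene are assigned in the table to Mir3473f, a microRNA gene, and are not among the 60.

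Those 16 peaks, all within the Bcl2 gene by RefSeq coordinates, are given as context and were looked at after the results of the table were known. Of them 1 was higher in D, 3 were lower and 12 were not called. The higher one (chr1:106569356-106570349) lay 144 kb downstream of the Bcl2 start. It had 27, 24.6 and 22.7 rppm in D, 5.3, 7.71 and 6.07 in C, 4.45, 4.12 and 3.79 in B and 4.24 and 2.42 in A. D stood far above the other populations, and C lay above A and B, which overlapped. The log2 change was 2.60 in D over A (SE 0.20, limma adjusted p = 2.17e-06) and 1.82 in D over C (limma adjusted p = 4.26e-05), and both calls held under each of the 23 alternatives. The 3 lower peaks had log2 changes of -0.68, -1.01 and -0.71, and the one at -1.01 (chr1:106606856-106607447) read 6.93, 9.31 and 7.51 rppm in D, against 17 and 16.6 in A (limma adjusted p = 0.000397, and 0.114 without mouse 3). The call at -0.71 (limma adjusted p = 0.00466) was lost without A of mouse 3 (0.0788) or mouse 3 (0.282). The call at -0.68 (limma adjusted p = 0.025) was lost in 7 of 23 alternatives, among them without A of mouse 1 (0.256), A of mouse 3 (0.0641), D of mouse 2 (0.0798) or D of mouse 3 (0.0639).

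**Figure D2:**
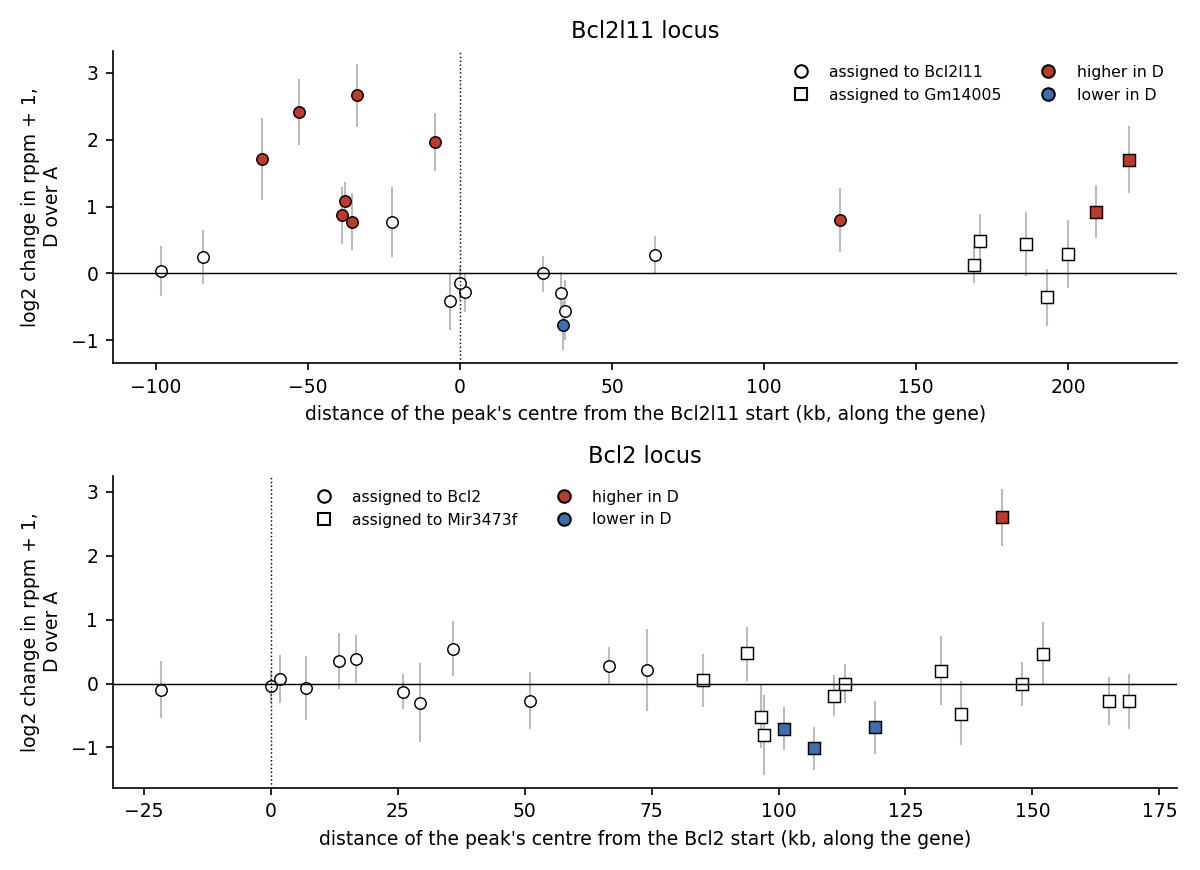
Log2 change in rppm + 1, D over A (points, with bars for the 95% interval), against the distance of each peak's centre from the gene's start, for the Bcl2l11 locus (upper panel) and the Bcl2 locus (lower panel). Circles are peaks assigned to the gene itself and squares peaks assigned to Gm14005 or Mir3473f. Red points left of the dotted start line in the upper panel are the 7 called upstream peaks of Bcl2l11, and the red square in the lower panel is the peak at 2.60 inside Bcl2.

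Bcl2l1 encodes Bcl-xL, a pro-survival protein that activated T cells raise. Its promoter peak was the most open of the 60 (chr2:152830296-152832001), with 87.9 and 90.2 rppm in A, 88.2, 90.8 and 87 in B, 74, 91 and 80.4 in C and 77, 91.3 and 78.4 in D (D over A log2 -0.12, SE 0.11, limma adjusted p = 0.608). The called peak lay in intron 2 (chr2:152825608-152826157), 2.61 kb downstream of its nearest annotated start. That start lies further along the gene than the one at the promoter peak. It read 6.42 and 6.14 rppm in A, 7.24, 8.81 and 6.66 in B, 8.44, 9.05 and 7.63 in C and 18.1, 14.5 and 15.7 in D. A, B and C formed a shallow slope below 10 rppm, and D stood apart above it. D averaged 16.1 ± 1.81 rppm (SD, n = 3) and A 6.28 ± 0.195 (SD, n = 2), a difference of 1.23 in log2 units (SE 0.16, by limma adjusted p = 0.000117, and 0.0513 without mouse 3). The remaining 2 peaks in intron 2 averaged 3.28 and 4.93 rppm and had log2 changes of -0.14 and -0.10.

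Mcl1 encodes a short-lived pro-survival protein that T cells need to survive. Its promoter peak (chr3:95658278-95659842) read 54.8 and 65.8 rppm in A, 50.4, 57.9 and 56.2 in B, 50, 59.6 and 55.7 in C and 55.8, 63.4 and 61.2 in D, with overlapping groups (D over A log2 -0.00, SE 0.12, limma adjusted p = 0.999). An intergenic peak 8.01 kb upstream (chr3:95650249-95651170) read 5.22 and 2.92 rppm in A, 5.23, 6.41 and 5.27 in B, 5.89, 6.17 and 5.79 in C and 12.3, 12.9 and 12.8 in D. The 3 D libraries agreed within 1 rppm of each other, above all others. D averaged 12.7 ± 0.323 rppm and A 4.07 ± 1.63, a difference of 1.47 in log2 units (SE 0.19, by limma adjusted p = 0.000116, and 0.0672 without mouse 3). At 10.3 kb downstream (chr3:95668591-95669489) the direction was the opposite, with 49.4 and 45.1 rppm in A, 42.6, 44.5 and 50.8 in B, 36.1, 44.1 and 48.8 in C and 28.1, 33.9 and 36.8 in D. All 3 D libraries were below both A libraries, and D overlapped C (D over A log2 -0.51, SE 0.15, limma adjusted p = 0.0321). This call was lost without A of mouse 1 (limma adjusted p = 0.247), A of mouse 3 (0.113), B of mouse 2 (0.0502), D of mouse 1 (0.0645) or D of mouse 2 (0.0513).

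Bcl2l11, the gene of Bim, carried the largest change of the 9 genes. Its called upstream peaks lay between 65 and 8.24 kb before the start, in introns 14 to 17 of the neighbouring gene Acoxl, whose transcript runs through the region. The most changed one lay 33.7 kb upstream (chr2:128092021-128092560), in intron 16 of Acoxl. It read 2.17 and 1.91 rppm in A, 4.79, 2.86 and 2.39 in B, 4.32, 4.73 and 4.6 in C and 21.2, 17.7 and 16.4 in D. The B libraries overlapped those of C, and every D library was more than 3 times the highest of the rest. D averaged 18.4 ± 2.46 rppm and A 2.04 ± 0.185, a log2 change of 2.67 (SE 0.21, 95% interval 2.21 to 3.12, limma adjusted p = 2.79e-06).

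A peak 52.9 kb upstream (chr2:128072834-128073431, intron 14 of Acoxl) was nearly closed in A, at 0.544 and 0.201 rppm, which were 5 and 2 reads. It read 0.557, 1.15 and 0.519 rppm in B, 2.16, 1.23 and 1.3 in C and 5.39, 7.42 and 6.16 in D, the last from 14, 51 and 227 reads. Each population stood higher than the one before it, with overlap only where A and B met. D averaged 6.32 ± 1.02 rppm and A 0.373 ± 0.243 (log2 2.42, SE 0.22, limma adjusted p = 8.26e-06). The peak 8.24 kb upstream (chr2:128117511-128118087, intron 17 of Acoxl) had 9.63, 12.4 and 12.1 rppm in D, 5.5, 4.53 and 3.49 in C, 2.9, 2.06 and 2.79 in B and 2.17 and 2.11 in A. Here D and C each stood clear of the populations below them, and A and B overlapped. Its log2 change of D over A was 1.97 (SE 0.20, limma adjusted p = 1.48e-05).

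**Figure D3:**
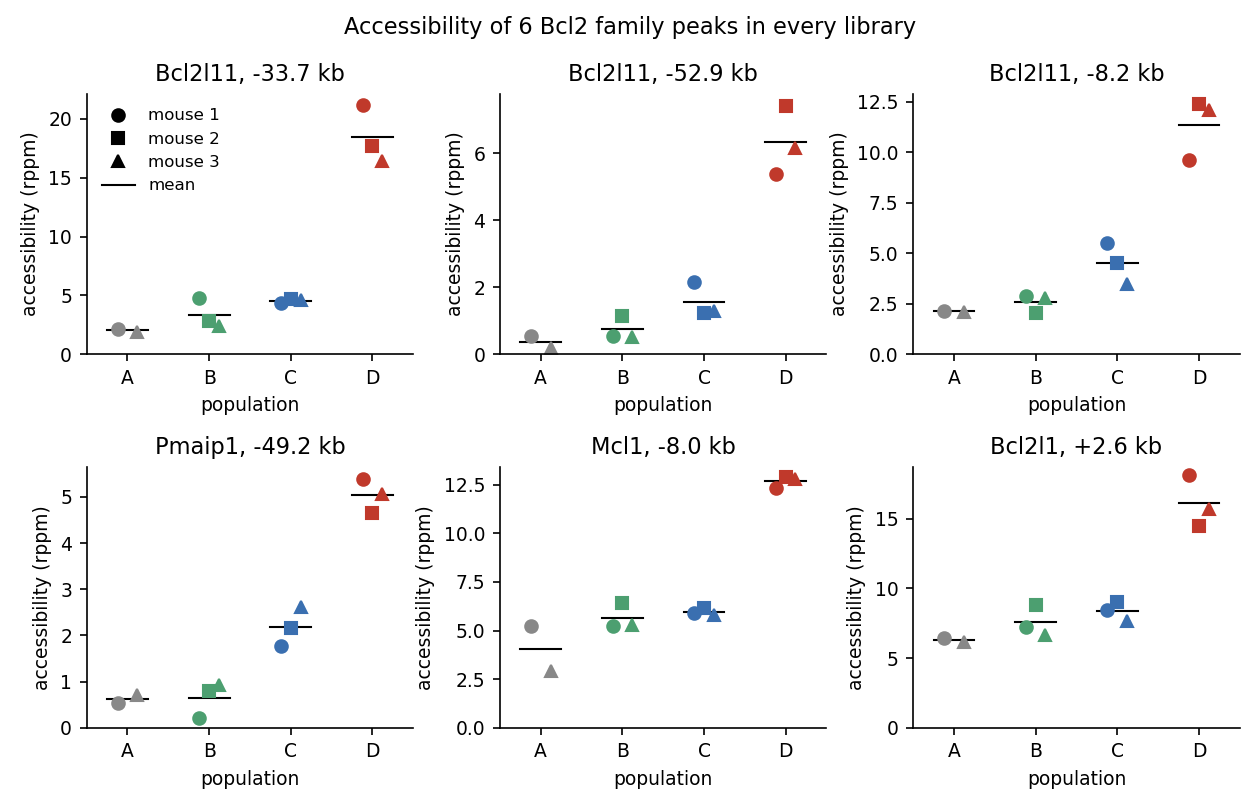
Accessibility in rppm (vertical axes, linear from 0) at 6 peaks in each library, by population from A (Nur77-GFPlo) to D (Nur77-GFPhi). Symbols mark the mouse and horizontal lines the population mean. At each of the 6 peaks all D libraries lie above all libraries of A, B and C, and the Bcl2l11 peak 33.7 kb upstream reaches 16.4 to 21.2 rppm in D.

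The other 4 called upstream peaks of Bcl2l11 changed less. At 65 kb (chr2:128060703-128061438) the values were 1.2 and 1.21 rppm in A, 1.78, 1.49 and 1.6 in B, 2.75, 2.37 and 1.53 in C and 3.46, 7.56 and 8.68 in D. Every D library was above all others, and that of mouse 1 was well below the other two (D over A log2 1.71, SE 0.28, limma adjusted p = 0.000894). At 37.8 kb (chr2:128087843-128088665) the values were 8.92 and 9.06 rppm in A, 12.2, 13.4 and 12.4 in B, 15.1, 14.7 and 14.7 in C and 18.1, 22.1 and 20.2 in D, a staircase with no overlap between neighbouring populations (D over A log2 1.08, SE 0.13, limma adjusted p = 5.40e-05). At 38.9 kb (chr2:128086918-128087379) the values were 5.44 and 6.75 rppm in A, 4.79, 6.75 and 6.78 in B, 5.5, 8.02 and 7.8 in C and 11.2, 12.1 and 12.4 in D. D stood above the rest, and A, B and C overlapped (D over A log2 0.87, SE 0.19, limma adjusted p = 0.00762). At 35.6 kb (chr2:128090241-128090594) the values were 3.7 and 2.82 rppm in A, 4.57, 4.12 and 4.27 in B, 5.1, 3.91 and 5.7 in C and 7.32, 5.38 and 6.16 in D. D was above A and overlapped C (D over A log2 0.77, SE 0.19, limma adjusted p = 0.0134). Without mouse 3 the limma adjusted p of these 4 peaks was 0.103, 0.0509, 0.2 and 0.481 in the order given. The call at 38.9 kb was also lost without A of mouse 1 (limma adjusted p = 0.115), and that at 35.6 kb without A of mouse 3 (0.18).

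Around the Bcl2l11 start itself the pattern was different. The peak over the start shown above (chr2:128125594-128126615) averaged 49 ± 4.6 rppm in D (SD, n = 3) and 53.9 ± 1.57 in A (SD, n = 2; log2 -0.14, SE 0.11, limma adjusted p = 0.532). The next peak (chr2:128126982-128128193) holds the start of another transcript and read 61.2 and 67 rppm in A, 61.4, 60.2 and 62.3 in B, 53.6, 64.5 and 59.4 in C and 43.9, 59.3 and 55.5 in D. There every D library was below both A libraries, but the difference was not called (log2 -0.28, SE 0.13, limma adjusted p = 0.204) unless the mouse was a term (log2 -0.33, limma adjusted p = 0.0227). At the 3′ UTR, 32.4 kb from the nearest start (chr2:128159665-128160230), accessibility was lower in D, with 12.7 and 15.5 rppm in A, 11, 12.2 and 12.4 in B, 10.4, 11.2 and 11.4 in C and 6.16, 8.73 and 8.71 in D. Every D library was below all others (D over A log2 -0.78, SE 0.16, limma adjusted p = 0.00533). That call was lost without A of mouse 3 (limma adjusted p = 0.103) and without mouse 3 altogether (0.305).

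The last called Bcl2l11 peak lay in intergenic DNA 123 kb downstream (chr2:128250480-128251356), at 2.39 and 3.22 rppm in A, 3.23, 3.09 and 3.75 in B, 4.12, 4.22 and 4.51 in C and 6.93, 3.78 and 6.48 in D. D of mouse 2 fell below all 3 C libraries (D over A log2 0.80, SE 0.21, limma adjusted p = 0.0249). It was lost without A of mouse 1 (limma adjusted p = 0.251), A of mouse 3 (0.0637), D of mouse 1 (0.0556) or D of mouse 3 (0.0827). The 10 peaks of Bcl2l11 that were not called had log2 changes from -0.56 to 0.77. Of these, the peaks 22.5 kb (log2 0.77) and 3.38 kb upstream (log2 -0.42) were called with a term for the mouse (limma adjusted p = 0.0366 and 0.0158) and not without it (0.0503 and 0.209).

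Pmaip1 encodes Noxa, a BH3-only protein that binds chiefly Mcl1. All 3 of its peaks, on chromosome 18, were higher in D than in A. The intergenic peak 49.2 kb upstream (chr18:66408997-66409807) read 0.544 and 0.705 rppm in A, 0.223, 0.801 and 0.918 in B, 1.77, 2.16 and 2.61 in C and 5.39, 4.65 and 5.07 in D. A and B overlapped below 1 rppm, C lay above both and D above C. D averaged 5.04 ± 0.369 rppm and A 0.625 ± 0.114, a difference of 1.89 in log2 units (SE 0.21, by limma adjusted p = 3.33e-05). The A values rested on 5 and 7 reads.

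The Pmaip1 promoter (chr18:66457978-66459127) read 8.92 and 8.46 rppm in A, 9.69, 8.81 and 9.34 in B, 8.83, 11.5 and 11.8 in C and 14.6, 13.4 and 15.7 in D. Every D library was above all others. It was the least open promoter of the 9 genes, at a mean of 11 rppm over the 11 libraries, against 30.5 to 85.1 rppm at the other 9 promoter peaks. The log2 change was 0.68 (SE 0.15, by limma adjusted p = 0.00743). At 12.6 kb downstream (chr18:66470540-66471875) the values were 3.26 and 3.93 rppm in A, 4.12, 3.43 and 4.31 in B, 6.67, 4.22 and 5.16 in C and 6.16, 5.96 and 7.76 in D. D lay above A and B and overlapped C (D over A log2 0.73, SE 0.19, limma adjusted p = 0.0239). The promoter call was lost without A of mouse 1 (limma adjusted p = 0.0513), A of mouse 3 (0.0825) or mouse 3 (0.402), and the downstream call without A of mouse 1 (0.216), A of mouse 3 (0.0806), D of mouse 3 (0.0841), mouse 1 (0.0732) or mouse 3 (0.404).

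Bbc3 encodes Puma, a BH3-only protein best known as a target of p53. Its promoter peak (chr7:16309198-16311789) read 79 and 84.7 rppm in A, 92.5, 85.3 and 104 in B, 75.2, 85.8 and 99.3 in C and 57, 74.3 and 87.3 in D, with D spanning the range of A (D over A log2 -0.19, SE 0.16, limma adjusted p = 0.573). The called peak lay 34.3 kb downstream, in intron 6 of the neighbouring gene Sae1 (chr7:16343550-16344177), with 2.94 and 3.12 rppm in A, 3.79, 2.75 and 2.95 in B, 2.55, 4.32 and 4.4 in C and 4.62, 8.29 and 5.43 in D. Every D library was above all others, the D library of mouse 1 by little. The log2 change of D over A was 0.79 (SE 0.24, limma adjusted p = 0.0472), at the edge of the threshold. Leaving out any of 9 of the 11 libraries ended the call: A of mouse 1 (limma adjusted p = 0.24), A of mouse 3 (0.191), B of mice 1, 2 and 3 (0.0546, 0.0638 and 0.0683), C of mice 2 and 3 (0.0568 and 0.0561) and D of mice 2 and 3 (0.146 and 0.0691). At 21 kb, in intron 8 of Sae1 (chr7:16330285-16330794), the values were 1.41 and 3.12 rppm in A, 3.67, 4.24 and 3.71 in B, 3.53, 3.7 and 4.06 in C and 1.93, 2.62 and 1.87 in D, so that the intermediate populations were the highest.

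Bid links death receptors to mitochondria once caspase 8 has cut it. No peak of Bid was called, and the promoter (chr6:120916119-120917424) read 50.8 and 51.7 rppm in A, 47.7, 44.1 and 48 in B, 43.4, 53.2 and 46.5 in C and 44.7, 55 and 43.6 in D (D over A log2 -0.11, 95% interval -0.37 to 0.16, limma adjusted p = 0.679). The Bid peak with the smallest p lay 17.5 kb upstream (chr6:120933991-120934684), at 6.09 and 7.15 rppm in A, 7.68, 5.84 and 7.06 in B, 5.1, 5.35 and 6.04 in C and 9.24, 5.67 and 6.65 in D, with D spanning the range of A (limma adjusted p = 0.859). The 4 peaks away from the promoter, of which 2 lie in the 3′ UTR of the neighbour Mical3, averaged 3.89 to 7.35 rppm and had log2 changes between -0.28 and 0.28.

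The effectors were measured at few peaks. The Bax promoter (chr7:45466197-45467281) read 29.3 and 32.5 rppm in A, 21.2, 31.7 and 36.4 in B, 21.8, 35 and 35 in C and 24.6, 35.8 and 32.5 in D (D over A log2 -0.01, 95% interval -0.52 to 0.50, limma adjusted p = 0.989). The libraries of mouse 1 were the lowest of B, C and D at this peak. An intergenic peak 4.19 kb upstream of Bax read 8.27 and 9.56 rppm in A, 7.79, 10.9 and 8.7 in B, 4.91, 9.87 and 9.85 in C and 5.78, 9.16 and 9.22 in D (D over A log2 -0.15, limma adjusted p = 0.802). The only Bak1 peak, at its promoter (chr17:27027299-27028907), read 48.4 and 48.7 rppm in A, 48.6, 55.6 and 48 in B, 43.8, 51.9 and 46.4 in C and 34.3, 44.4 and 44.4 in D. Every D library was below both A libraries. The log2 change of D over A, -0.25 (SE 0.13, limma adjusted p = 0.287), was called only with a term for the mouse (log2 -0.31, limma adjusted p = 0.0275).

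Of the neighbouring steps, most of the gain at the 14 higher peaks fell between C and D. The median log2 step was 0.77 for D over C (0.27 to 1.80), 0.24 for C over B (0.07 to 0.97) and 0.21 for B over A (-0.01 to 0.48), and D over C was the largest of the 3 at 10 of the 14 peaks. These peaks were chosen for a difference between D and A, so that at least some of the steps had to be above 0. The choice also favours the steps that use the D or A libraries over C over B. At 12 of the 14, D was above C in all 3 mice, which the choice favours too. The sizes of the steps are thus a description. They were not compared with those at all 3957 peaks called higher in D against A. Among all 45508 peaks, limma called 2052 higher and 678 lower in D against C, 0 in B against A and 1 in C against B.

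In D against C, which raises the reporter within Ly6C negative cells, 9 of the 60 peaks were called higher and 0 lower (15%, against 4.51% higher and 1.49% lower over the table). They were 6 upstream peaks of Bcl2l11 and 1 each of Bcl2l1, Mcl1 and Pmaip1. The Bcl2l11 peak 33.7 kb upstream had the largest step, at log2 1.80 (SE 0.19, limma adjusted p = 6.84e-05), followed by the peak at 52.9 kb (log2 1.52, limma adjusted p = 0.000369) and, at log2 1.18 each, the peaks at 8.24 and 65 kb (limma adjusted p = 0.00102 and 0.0116). Mcl1 8.01 kb upstream rose by log2 0.98 (limma adjusted p = 0.00278), Pmaip1 49.2 kb upstream by 0.93 (0.00782) and Bcl2l1 in intron 2 by 0.87 (0.00186). With a term for the mouse, 10 were higher and 5 lower (6.82% and 4.53% over the table), the lower ones at Bcl2l11 3.38 kb upstream and 32.4 kb downstream, Mcl1 10.3 kb downstream and Bbc3 21 and 22.6 kb downstream. The added higher call was the Pmaip1 promoter (log2 0.42, limma adjusted p = 0.0431, against 0.0969 without the term). Without mouse 3 only the Bcl2l11 peak 33.7 kb upstream was still called in D against C.

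Some calls in D against C rested on individual libraries. At 65 kb upstream of Bcl2l11 (log2 1.18, limma adjusted p = 0.0116) the call was lost without C of mouse 3 (0.0592) or D of mouse 2 (0.0532) or mouse 3 (0.0546). At 38.9 kb (log2 0.68, limma adjusted p = 0.0311) it was lost without C of mouse 1 (0.121) or mouse 3 (0.0534) or D of mouse 2 (0.0852) or mouse 3 (0.0935). At 37.8 kb (log2 0.41, limma adjusted p = 0.0465) it was lost in 14 of 23 alternatives, among them the removal of any library but D of mouse 1, with adjusted p up to 0.161 from a single library.

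The steps B against A and C against B gave no called peak of the 9 genes. In B against A, limma called 0 of the 60 peaks and 0% of the table, edgeR and DESeq2 0 of the 60, and 4 peaks had an unadjusted p below 0.05 (2.68% of the table did). In C against B, limma called 0 of the 60 peaks (0.0022% of the table), and 3 had an unadjusted p below 0.05 (4% of the table). The Pmaip1 peak 49.2 kb upstream had the largest step there, with 2.18 ± 0.422 rppm in C and 0.647 ± 0.372 in B (log2 0.97, SE 0.19, limma adjusted p = 0.172). It was called with a term for the mouse (limma adjusted p = 0.0354, 0.193% of the table called), by edgeR (adjusted p = 0.0359, 0.147% called) and by DESeq2 (adjusted p = 0.0311, 0.189% called).

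**Figure D4:**
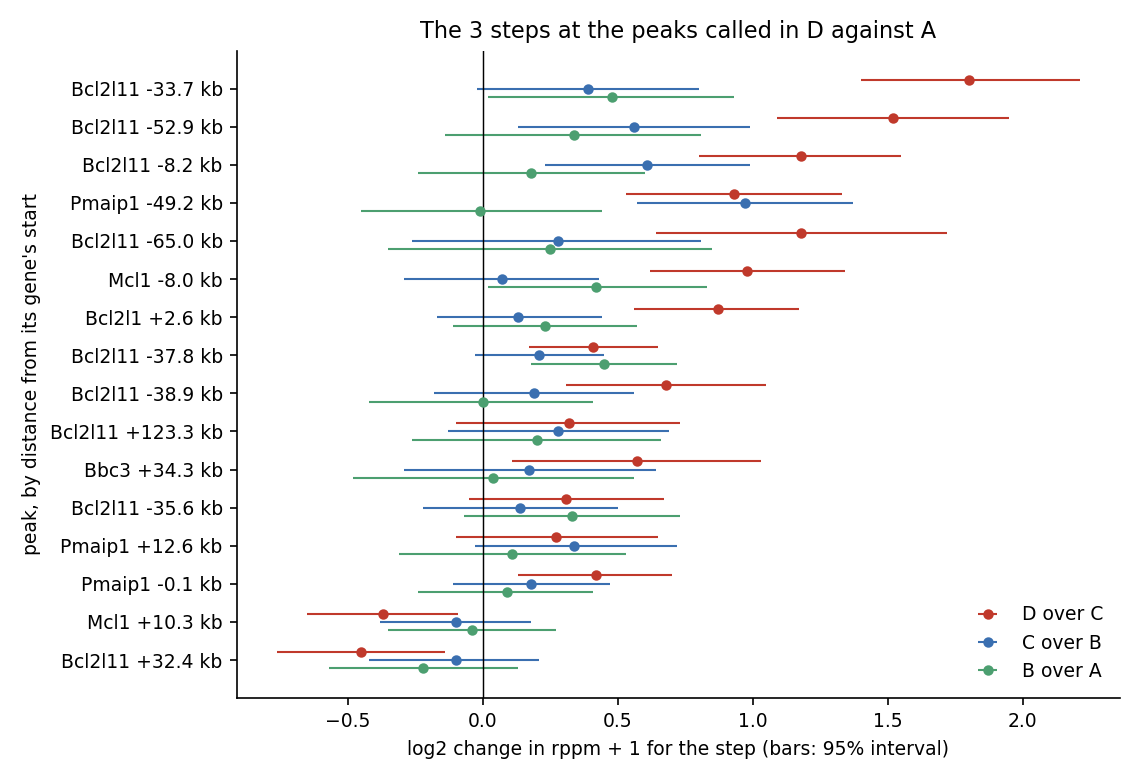
Log2 change in rppm + 1 (horizontal axis) for D over C (red), C over B (blue) and B over A (green) at the 16 peaks called in D against A, with bars for the 95% interval of the limma estimate. Peaks are ordered by their change between D and A. The red points lead at the upper peaks, and at the Pmaip1 peak 49.2 kb upstream the D over C step is 0.93 and the C over B step 0.97.

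Whether the reporter step was larger in Ly6C negative cells was tested by the difference between D minus C and B minus A. The 2 steps do not span equal reporter levels, since D minus C runs from intermediate to high and B minus A from low to intermediate. Limma called 0 of the 60 peaks (0.631% of the table), edgeR and DESeq2 also 0, and 11 of the 60 had an unadjusted p below 0.05, against 7.98% of the table. At the Bcl2l11 peak 33.7 kb upstream the D over C step exceeded the B over A step by log2 1.33 (SE 0.28, limma adjusted p = 0.0575). With a term for the mouse, 3 peaks were called (2.16% of the table): this one (1.30, limma adjusted p = 0.0127), the Bcl2l11 peak at 52.9 kb (1.24, limma adjusted p = 0.0394) and the Bbc3 peak at 21 kb, where the difference was negative (-1.18, limma adjusted p = 0.0341). Over all 4 populations at once, the F test called 11 of the 60 peaks (18.3%, against 9.64% of the table): 7 of Bcl2l11, 2 of Pmaip1 and 1 each of Bcl2l1 and Mcl1. With a term for the mouse it called 20 (17.5% of the table).

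The wider death machinery was read from a list of 43 further genes, of which 39 had peaks, 131 in all. Hrk, Bcl2l12, Bcl2l15 and Htra2 had none. In D against A, 17 of the 131 peaks were higher and 2 lower, against 8.7% and 3.74% of all peaks, with a median log2 change of -0.00, against -0.04 over the table. With a term for the mouse 24 were higher and 12 lower, against 12.5% and 8.79% of all peaks. The other members of the Bcl2 family had 10 higher and 0 lower of 36 peaks, and a median of 0.26, caspases and apoptosome genes 3 and 0 of 35 (median -0.05), death receptor genes 4 and 2 of 54 (-0.05) and p53 with its partners 0 and 0 of 6 (-0.18). The caspase and death receptor groups thus lay near the 8.7% higher and 3.74% lower of the whole table. Of the 10 higher peaks of the Bcl2 family list, 6 are assigned to Bcl2l14, which had 12 peaks, and 4 of those 6 lie in introns of its neighbours Etv6 and 4933406J09Rik.

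The peaks of that list with the smallest p over the 4 populations, 1 for each gene, were led by a Bcl2l14 peak 144 kb upstream, in intron 6 of Etv6 (chr6:134251886-134252755), with 27.3, 22.1 and 23.8 rppm in D against 2.61 and 2.01 in A (log2 2.94, limma adjusted p = 3.23e-07). Fasl, the ligand of the death receptor Fas, had one 95 kb downstream (chr1:161693217-161693859) at 3.93 ± 0.562 rppm in D and 0.763 ± 0.771 in A (log2 1.55, limma adjusted p = 0.00104). Intron 1 peaks of Bcl2a1b and Bcl2a1d, copies of the pro-survival gene A1, were higher in D (log2 1.47 and 1.35, limma adjusted p = 3.47e-05 and 0.000491), but reads from these near-identical genes cannot be placed with certainty. Of the 10 peaks of Cflar, an inhibitor of caspase 8, 1 was higher in D (chr1:58761247-58762134, log2 0.74, limma adjusted p = 0.0215) and 1 lower. The lower one, in intron 4 (chr1:58733894-58734891), stood at 15.5 ± 1.08 rppm in D against 23.5 ± 1.67 in A (log2 -0.57, limma adjusted p = 0.00823). Without mouse 3 the calls at Bcl2a1d (log2 1.20) and at the Cflar intron 4 peak (log2 -0.52) were lost. The Cflar intron 4 call was also lost without A of mouse 3 (log2 -0.50).

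The profile of the Bcl2l11 peak 33.7 kb upstream over the 11 libraries was compared with those of other peaks. Among 35036 other peaks that averaged 5 rppm or more, the 5 genes with the most similar peak were Cxcr4 (Pearson r = 0.991), Ankdd1b (0.990), Lpp, Vps54 and Zmiz1 (0.988 each), as a description over 11 libraries that share mice and depth. The Cxcr4 peak had 66.6, 54.7 and 56.6 rppm in D against 26.1 and 25.7 in A, and the Ankdd1b peak 25.8, 15.9 and 17.3 in D against 0.761 and 0.503 in A. In both, the D library of mouse 1 was the highest, as it was at the Bcl2l11 peak.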

How the data were processed

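ATAC-seq libraries of 11 sorted samples from 3 mice were analysed from 1 deposited peak table. Bowtie, MACS2 and the build mm10 are named in the submitters' processing notes, and how peaks were called or pooled was not given in the sources used here. The deposited values are in RPM (headed rppm per the file headers), normalised by the authors, and 100% of them came back as whole reads, within 0.0006 rppm, once each library's step was found. The denominators so recovered ran from 2597176 to 36859228 reads, and 92.5% to 94.7% of each lay in the listed peaks, so 1 read was worth 0.02713 to 0.385034 rppm. Values below that of a few reads, as in A at 2 peaks, are imprecise from counting alone.

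Groups follow the sample labels. A limma 3.58.1 model (R 4.3.3) with 1 mean per population was fitted to log2(rppm + 1) over 45508 peaks and 11 libraries, with a trended empirical Bayes prior and Benjamini-Hochberg adjustment at 0.05. A fold change on this scale understates the change of low peaks. Alternatives were pseudocounts of 0.25 and 5, peaks averaging 5 rppm or more, median-of-ratios and quantile scaling, a term for the mouse, only the compared populations, edgeR 4.0.16 quasi-likelihood and DESeq2 1.42.0 tests on the recovered reads, and leaving out each library or mouse. An arm left with 1 library is assumed to vary like the other populations. The main limma fit was also run on simulated counts with a common dispersion and no mouse effect. That run cannot show how the pairing by mouse affects the calls.

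The replicate number is the mouse from which the populations were sorted, so it pairs the libraries. Deviations from the population means correlated at 0.18 to 0.56 between libraries of the same mouse (median 0.36, 15 pairs) and at -0.43 to 0.20 between mice (median -0.21, 30 pairs). The deviations within a population sum to 0, so positive values for the same mouse push those between mice below 0. The values between mice are thus no separate evidence of pairing. Values were printed library by library for peaks called in any comparison without the mouse term, the promoter peak of each gene and each gene's peak with the smallest p over the 4 populations. The genes and both lists were chosen with earlier results of these data known. Peak sequences were not used here, and RefSeq promoter windows of GRCm38.p6 took their place. Results for some items are not reported here.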

Additional observations from a re-analysis of the deposited data

Results flagged for a closer look

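At 2 peaks outside the 60 that entered the text for their position or their profile, the D over C step differed from the B over A step. The Mir3473f peak inside the Bcl2 gene (chr1:106569356-106570349) averaged 24.7 rppm in D and 6.36 in C, and 4.12 in B and 3.33 in A. The difference between the steps was log2 1.54 (limma adjusted p = 0.0164), and it was called in 13 of 22 alternatives, with adjusted p from 0.00193 to 0.722. It was lost without A of mouse 1 (limma adjusted p = 0.135), B of mouse 2 (0.0511) or B of mouse 3 (0.0589), and without mouse 1 (0.0769), mouse 2 (0.169) or mouse 3 (0.722). The Ankdd1b peak in intron 7 of Polk (chr13:96487080-96487837), found by its likeness to the Bcl2l11 peak 33.7 kb upstream, had 25.8, 15.9 and 17.3 rppm in D and 3.14, 3.08 and 2.19 in C, against 2.56, 0.801 and 1.44 in B and 0.761 and 0.503 in A. Its difference between the steps was log2 1.80 (limma adjusted p = 0.0445). The peak was chosen for a profile that is high in D, so this value is a description, and no alternative was run for it. The 2 steps cover different spans of the reporter.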

How the results depend on the processing

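No named peak changed sign in a call: of 3744 verdicts on 28 named peaks over 23 alternatives, 3588 kept their side of the threshold, 105 lost it, 51 gained it and 0 reversed. Leaving out mouse 3 cut the calls to 4 of 60 in D against A, 1 in D against C, 4 for any difference and 8 of the 131 peaks of the wider list, and leaving out mouse 2 cut D against C to 4 and any difference to 7. Without A of mouse 1 or of mouse 3, the fit for A rests on 1 library. Leaving out 1 library in turn gave 9 to 16 calls in D against A, 6 to 9 in D against C, 10 to 13 for any difference, 0 to 1 for D minus C against B minus A and 12 to 23 in the wider list. Restricting to peaks averaging 5 rppm or more, which tests 39 of the 60, left 9 calls in D against A, 5 in D against C and 7 in the wider list. The replicate block (a term for the mouse) raised the calls to 15 in D against C, 20 for any difference, 3 for D minus C against B minus A, 1 in C against B and 36 in the wider list, and each call of the 60 peaks that it changed in a pairwise comparison is given with its peak, with no other changed there. D minus C against B minus A gave 3 calls with a pseudocount of 5 and 1 each with median-of-ratios scaling, with quantile scaling and without mouse 1. C against B gave 1 call by edgeR and 1 by DESeq2. The shallowest library, D of mouse 1, had 2597176 reads, so that a peak at 1 rppm there rests on fewer than 3 reads.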

Other observations

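Peaks assigned to other genes near the 9 loci were looked at after their values were seen, and they are given as values. Counts are for D against A, where 8.7% of all peaks were higher and 3.74% lower, within 100 kb of the stretch spanned by each gene and its own assigned peaks. Around Bcl2l11, 2 of 8 such peaks were called, both higher in D, 209 and 220 kb downstream of the Bcl2l11 start. Both lay in intron 1 of Morrbid, a long non-coding RNA gene known in the mouse to repress Bcl2l11. The gene name the table gives them is Gm14005. The one with the larger change (chr2:128345344-128346050) had 16.9, 10.9 and 13.8 rppm in D against 3.92 and 3.12 in A, a difference of 1.70 in log2 units (SE 0.23, by limma adjusted p = 0.000161, and 0.0593 without mouse 3). D over C was log2 1.22 (limma adjusted p = 0.00214). The other (chr2:128334746-128335447) had 4.62, 5.24 and 5.94 rppm in D and 2.17 and 2.42 in A (log2 0.92, SE 0.18, limma adjusted p = 0.0027, and 0.197 without mouse 3).

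In intron 2 of Bcl2l1, 2 peaks assigned to Cox4i2 were called. One (chr2:152787451-152788002) was higher in D, with 3.85, 5.82 and 6.51 rppm against 1.85 and 0.805 in A (log2 1.47, limma adjusted p = 0.000875, and 0.235 without mouse 3), and the other (chr2:152775274-152776128) was lower in D (log2 -0.49, limma adjusted p = 0.0376), a call lost in 13 of 23 alternatives, with adjusted p up to 0.455, both other scalings and the removal of either A library among them. Around Mcl1, 1 of 18 peaks was higher and 1 lower, and around Bid 2 of 6 were higher. These 4 calls were lost without mouse 3 and without A of mouse 3, and in 4 to 7 of 23 alternatives. None was called near Bbc3 (19 peaks), Bax (25) or Bak1 (18), and Pmaip1 had 0 other peaks within that reach.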
